A study of Mus musculus with 2 samples.

Results

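The immediate early genes described here are 10 genes, Fos, Fosb, Jun, Junb, Atf3, Egr1, Egr2, Egr3, Nr4a1 and Ier2. They were taken as all probe sets that the platform annotation pairs with 1 of these symbols alone, which gave 13 probe sets, among 18193 genes with a probe set of their own in the series. The Entrez identifiers of all 10 carried the same symbols in the RefSeq table of GRCm38.p6. The series has 2 arrays of whole fetal esophagus from mouse embryos at E18.5, shortly before birth. The first is labelled as lacking both Myf5 and Myod1 (genotype BALB/c Myf5:Myod null) and the other is wild type (BALB/c). Neither sample has a recorded treatment, and the sources used here do not state how many embryos gave each RNA sample. Myf5 and Myod1 encode the factors that commit cells to skeletal muscle, and the study is titled as one of striated muscle taking the place of smooth muscle in the growing esophagus. With 1 array per genotype there was no replicate, so no difference below has a test or a p-value.

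Immediate early genes are switched on within minutes of a growth factor, stretch, calcium or stress signal, by factors already present in the cell, and their transcripts are short-lived. Serum response factor with its ternary complex partners, bound at CArG boxes, and CREB, bound at cAMP response elements, are the best known of these factors. Most of the proteins are transcription factors themselves: Fos and Jun proteins pair as AP-1, Egr proteins are zinc finger activators, and Nr4a1 is an orphan nuclear receptor. Cutting and handling a tissue are also known to induce these genes. The sources used here do not describe dissection or the time to extraction. With 1 array per genotype, handling and genotype cannot be told apart.

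On the null-labelled array 5 of the 9 measured genes, Egr1, Fos, Nr4a1, Egr2 and Atf3, read at least 2-fold lower than on the wild-type array, and 0 read 2-fold higher. Among all 13315 measured genes, 5.36% passed 2-fold in the lower direction and 6.01% in the higher one. The other 4 measured members, Fosb, Jun, Egr3 and Ier2, were within 2-fold. Junb was below the low-signal limit on both arrays and counted as not measured. The limit is a signal of 489, the median of all probe sets of both arrays, and it stands in for detection calls, which were not used here. Any signal under it was set to it before ratios were formed, so a gene below it on 1 array has a ratio that is only a bound. Fosb and Egr3 lay so near the limit on the wild-type array that they could not read 2-fold lower.

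The promoters of the lower genes that the table of promoters holds, Fos, Atf3, Egr2 and Nr4a1, are shown first, since inducing signals act there. They are RefSeq sequences of GRCm38.p6, each 300 bases, from 250 before the annotated start to 50 after it, on the strand of the gene. Capitals mark 3 motifs searched on both strands: the core of the cAMP response element (TGACGT, or ACGTCA on the other strand), the TATA box (TATAAA) and the CArG box. The Fos window is chr12:85473640-85473939 on the plus strand, the Atf3 window chr1:191183284-191183583 on the minus strand, the Egr2 window chr10:67537619-67537918 on the plus strand, and the Nr4a1 window chr15:101266596-101266895 on the plus strand.
Fos: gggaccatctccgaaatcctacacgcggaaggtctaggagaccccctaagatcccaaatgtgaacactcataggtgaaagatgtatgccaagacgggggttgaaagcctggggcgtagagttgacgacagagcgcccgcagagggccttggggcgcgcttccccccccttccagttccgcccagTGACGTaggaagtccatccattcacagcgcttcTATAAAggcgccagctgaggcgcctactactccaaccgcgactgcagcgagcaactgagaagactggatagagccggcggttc
Atf3: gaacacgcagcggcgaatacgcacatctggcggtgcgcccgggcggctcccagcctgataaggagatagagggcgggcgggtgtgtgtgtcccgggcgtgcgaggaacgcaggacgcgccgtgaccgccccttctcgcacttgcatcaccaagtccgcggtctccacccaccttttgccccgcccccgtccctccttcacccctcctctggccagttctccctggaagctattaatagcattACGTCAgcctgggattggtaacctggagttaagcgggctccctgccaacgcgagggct
Egr2: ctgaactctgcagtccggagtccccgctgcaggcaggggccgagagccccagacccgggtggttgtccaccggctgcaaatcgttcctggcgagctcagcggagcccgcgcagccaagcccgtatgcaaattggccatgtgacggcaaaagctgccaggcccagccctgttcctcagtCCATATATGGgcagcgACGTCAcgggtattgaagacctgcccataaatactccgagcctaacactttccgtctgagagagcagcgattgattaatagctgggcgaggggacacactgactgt
Nr4a1: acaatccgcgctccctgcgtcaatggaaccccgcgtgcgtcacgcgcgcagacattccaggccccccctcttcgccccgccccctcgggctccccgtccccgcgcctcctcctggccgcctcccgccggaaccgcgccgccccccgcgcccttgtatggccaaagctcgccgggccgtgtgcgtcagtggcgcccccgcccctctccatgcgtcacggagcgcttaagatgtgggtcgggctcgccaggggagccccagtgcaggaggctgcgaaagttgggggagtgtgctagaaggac

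In Fos the response element core lay at -66 to -61 from the start and the TATA box at -33 to -28. In Atf3 the core lay at -8 to -3, on the opposite strand. In the Egr2 window the CArG box lay at -72 to -63 and the core, also on the opposite strand, at -56 to -51. The table lists 5 windows for Egr2, of which 3, the printed one among them, overlap and share these elements. The Nr4a1 window held none of these 3 motifs in the exact letters searched. Windows were at hand for 7 of the 10 genes, without Egr1, Egr3 and Ier2. A gene was counted if any of its windows held the motif, and shares of all genes are given by the same rule, over 27025 genes. Egr2, with 5 windows, had more chances to match than the other searched members, which had 1 each. The response element core was found for 3 of the 7 genes, Fos, Atf3 and Egr2, against 8.37% of all genes. It was not in the windows of Nr4a1, Fosb, Jun and Junb. Only exact letters were counted, and letters 1 base off, such as GCGTCA in the printed Nr4a1 window, were not. The search therefore does not show that these genes lack a response element. A CArG box was found for 1 of the 7 genes, Egr2, against 1.81% of all genes. A box farther from the start than the windows reach would not be counted. The search therefore does not show that Fos or the other genes without a match lack one, and Egr1 was not searched. The core of the EGR site (GCGNGGG) was found for 6 of the 7, all but Fos, against 25.2% of all genes. No member window held the AP-1 site (TGANTCA), which 8.97% of all genes had. The TATA box letters were found for Fos and Junb, against 15.7% of all genes. In Junb they lay at 1 to 6, at the annotated start itself and not before it as in Fos. These matches are letters in a window and say nothing of binding in the esophagus.

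**Figure D1:**
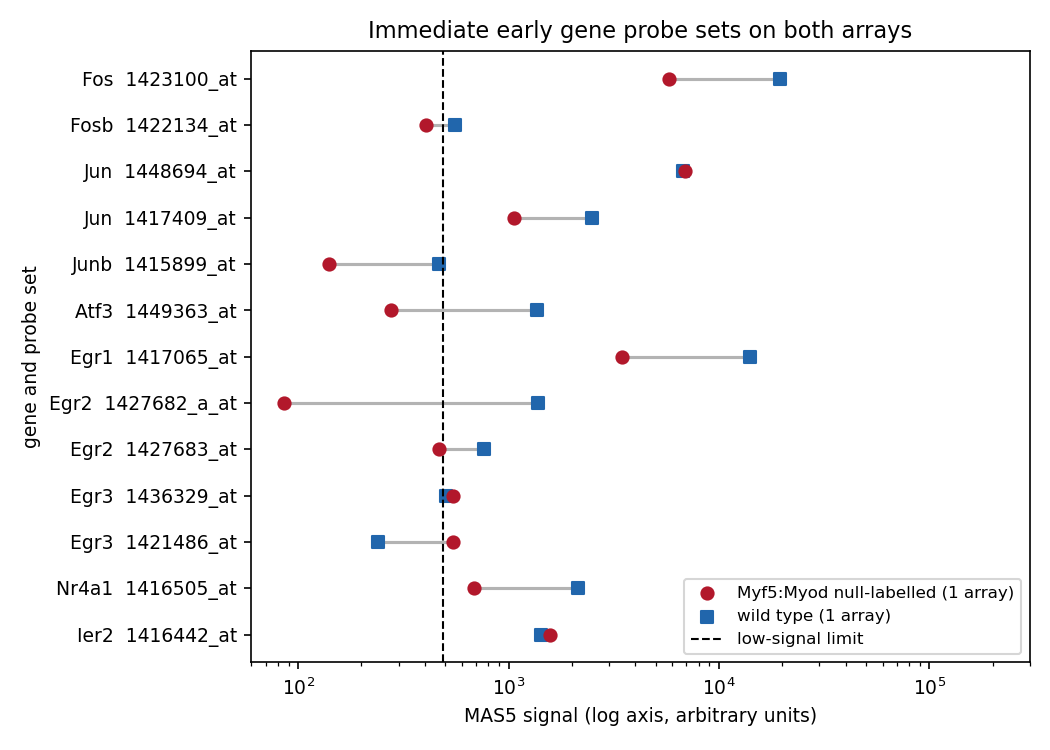
MAS5 signal (log axis, arbitrary units) of the 13 probe sets of the 10 genes, with red circles for the null-labelled array, blue squares for the wild-type array, and a dashed line at the low-signal limit of 489. The wild-type square lies far to the right for Fos, Egr1, Nr4a1, Atf3 and 1 Egr2 probe set, while Ier2 and the brighter Jun probe set read nearly the same on both arrays.

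Of the 3 Egr genes, Egr1 and Egr2 read at least 2-fold lower on the null-labelled array, while Egr3 lay too near the limit to compare. Egr1, a zinc finger activator, had a signal of 3467 on the null-labelled array and 14055 on the wild-type array, 4.05-fold lower (log2 ratio -2.02). Both signals were well over the limit, and this was the lowest ratio of the 9 measured members with bounds taken at their value. Egr2 and Atf3 have bounds only, so their place relative to Egr1 is not resolved at this limit. Both read lower than Egr1 under a limit set to the 25th percentile and with no limit. Egr2, the related factor that Schwann cells need for myelination, read 85.9 on the null-labelled array and 1377 on the wild-type array at its brighter probe set. The null-labelled signal was under the limit, so Egr2 counted as at least 2.81-fold lower (a bound of -1.49 on the log2 scale). Its other probe set read 467 and 768 on the null-labelled and wild-type arrays, again under the limit on the null-labelled array only, which bounds its log2 ratio at -0.65. Both Egr2 probe sets were thus lower on the null-labelled array, but they differed in size and only 1 passed 2-fold. Egr3, a factor that mice need to form muscle spindles, read 547 on the null-labelled array and 505 on the wild-type array (log2 ratio 0.12). Its second probe set read 543 and 238 on the null-labelled and wild-type arrays, a bound of 0.15 on the log2 scale. The Egr3 signals all lay near or under the limit, and neither probe set passed 2-fold. Its wild-type signals left no room to read 2-fold lower, so Egr3 is not shown to differ from Egr1 and Egr2.

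Among the AP-1 genes, Fos and Atf3 read lower, while Jun depended on the probe set. Fos read 5805 on the null-labelled array and 19581 on the wild-type array, 3.37-fold lower (log2 ratio -1.75) on its single probe set. Fosb, a close relative of Fos, read 406 and 559 on the null-labelled and wild-type arrays, next to the limit, and counted as at least 1.14-fold lower (a bound of -0.19 on the log2 scale). Atf3, a stress-induced member of the ATF and CREB family that can pair with Jun proteins, read 276 on the null-labelled array, below the limit, and 1369 on the wild-type array. It counted as at least 2.80-fold lower (a bound of -1.49 on the log2 scale). Fos could not be compared with Fosb, whose signal left little room for a difference to show at this limit.

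Jun, the main partner of Fos, had 2 probe sets that disagreed. The brighter one, which stands for the gene, read 6906 on the null-labelled array and 6724 on the wild-type array (log2 ratio 0.04). The dimmer one read 1057 and 2480 on the null-labelled and wild-type arrays, 2.35-fold lower (log2 ratio -1.23), with all 4 Jun signals over the limit. The gap between them was 1.27 on the log2 scale. Of the 3343 genes with 2 measured probe sets, 88.9% had a smaller gap, and the median gap was 0.49, with bounds taken at their value. Whether Jun read lower on the null-labelled array is thus not settled by these arrays. Junb, an AP-1 member that can oppose Jun, read 141 on the null-labelled array and 469 on the wild-type array. Both signals were under the limit, so no fold is given, although the wild-type signal was only just below it.

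Nr4a1, the orphan nuclear receptor, read 682 on the null-labelled array and 2143 on the wild-type array, 3.14-fold lower (log2 ratio -1.65). Ier2, which encodes a small nuclear protein, read 1567 on the null-labelled array and 1433 on the wild-type array (log2 ratio 0.13). Ier2 had the highest ratio of the 9 measured members, and it was over the limit on both arrays. Nr4a1 and Ier2 thus differed from each other although both were measured on both arrays and fell in the same one of 4 equal groups of measured genes by mean signal.

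The share of genes that pass 2-fold depends on brightness, so it is also given by these groups. In the brightest group, which holds Egr1, Fos and Jun, 6.46% of genes were lower by 2-fold and 2.43% higher. In the second dimmest, which holds Nr4a1, Atf3 and Ier2, the shares were 7.06% and 13.8%. In the dimmest, which holds Egr2, Fosb and Egr3, they were 1.74% and 4.72%. The brightest and the second dimmest groups thus each held at least 1 lower member and at least 1 within 2-fold. In the dimmest group Egr2 was lower. Fosb and Egr3 say nothing of a split there, since their wild-type signals lay too near the limit to read 2-fold lower.

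With bounds taken at their value, the measured members fell into 2 ranges, 5 between -2.02 and -1.49 on the log2 scale and 4 between -0.19 and 0.13. Their median log2 ratio was -1.49, against 0.09 for all measured genes, whose central 95 percent ran from -1.41 to 1.25. Egr1, Fos and Nr4a1, the 3 lower genes with both signals over the limit, had the 137th, 194th and 230th lowest ratios of the 13315 measured genes. They spanned 0.37 on the log2 scale. The probe sets of 1 gene differed among themselves by more, with a pooled SD of 0.56 over 14307 probe sets of 5455 genes, so the order among the 3 is not resolved. Their own ratios were 3.62 (Egr1), 3.14 (Fos) and 2.96 (Nr4a1) times that SD. This SD takes bounds at their value, which draws their ratios toward 0, and it leaves out all variation between animals. Of the 6 members over the limit on both arrays 3 were at least 2-fold lower, and 0 higher, against 4.99% and 4.4% of the 10346 such genes. The other 3 (Jun, Egr3 and Ier2) lay within 0.13 of 0. Egr3, like Fosb, had a wild-type signal too near the limit to read 2-fold lower.

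**Figure D2:**
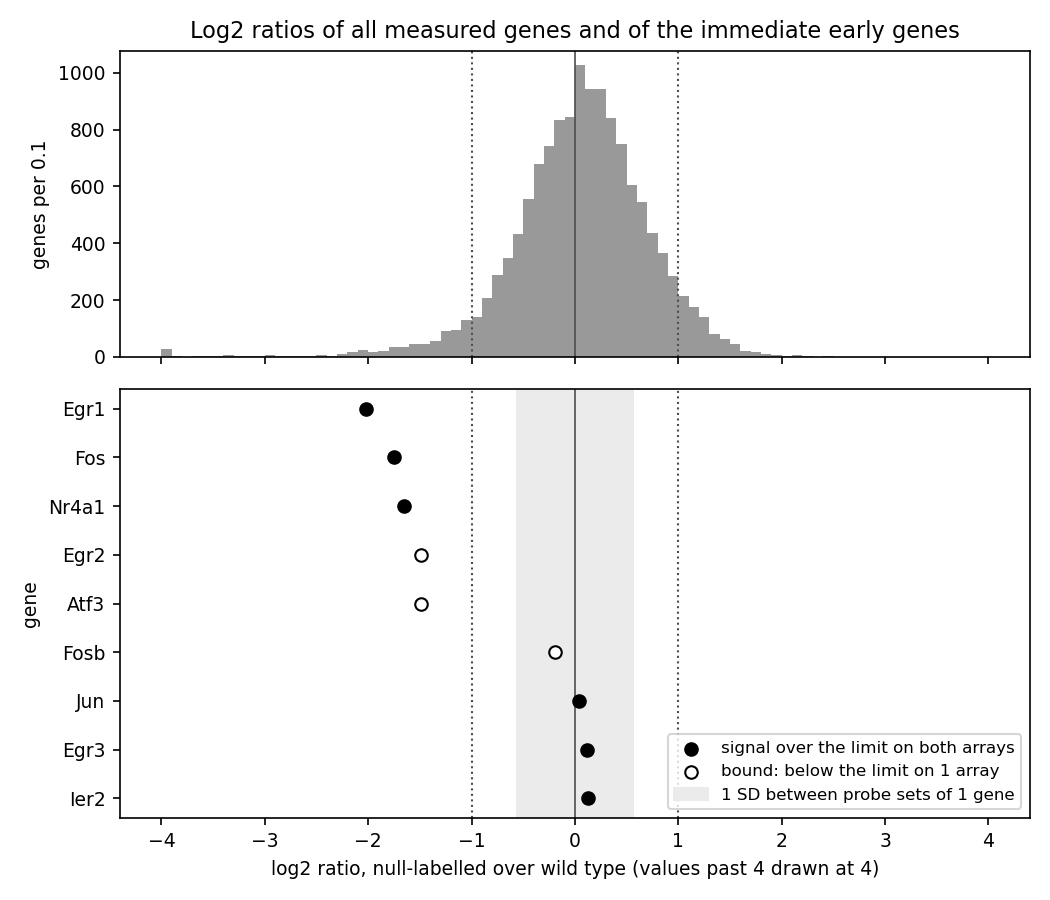
Upper panel: number of measured genes (of 13315) by log2 ratio (null-labelled over wild type), in bins of 0.1. Lower panel: the 9 measured immediate early genes on the same axis, filled where both signals exceed the limit and open where the ratio is a bound, with grey marking 1 SD between probe sets and dotted lines 2-fold; 5 genes lie left of -1 and 4 lie within the grey band.

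Over single probe sets, 6 of the 12 measured ones were at least 2-fold lower and 0 higher, against 4.94% lower and 5.94% higher of all 22203 measured probe sets with 1 symbol. Only Jun, Egr2 and Egr3 have 2 probe sets, and all of these were measured. The probe sets of Egr2 and of Egr3 lay on 1 side of 0 and those of Jun on both sides. Over all 5455 genes with 2 or more measured probe sets, 47.7% had all of them on 1 side. Fos, Egr1, Nr4a1 and Atf3 rest on 1 probe set each, so 4 of the 5 lower genes have no second reading in this table. On the null-labelled array 8 of the 13 probe sets reached the limit, against 11 on the wild-type array. Over all probe sets the balance ran the other way, with 55.4% at or over the limit on the null-labelled array and 44.6% on the wild-type array.

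The wider immediate early response was examined in 6 further lists of 73 genes, of which 60 were measured. Of these 60, 6 were at least 2-fold lower (10%) and 1 was at least 2-fold higher, against 5.36% and 6.01% of all measured genes. Their median log2 ratio was -0.08, with 31 genes below 0 and 29 above it. The 6 lower genes came from 2 of the 6 lists, the feedback genes and the secreted and surface genes.

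Of the 12 other AP-1 genes 8 were measured, 0 of these were 2-fold apart at their brightest probe set, and the median log2 ratio was 0.11, with a range of -0.33 to 0.41. Fosl2, a Fos relative, was the brightest, at 27270 on the null-labelled array and 26303 on the wild-type array. Jund, the least inducible Jun gene, read 20362 and 21556 on the null-labelled and wild-type arrays. Atf2, an ATF that can pair with Jun, had a log2 ratio of 0.26 at its brightest probe set, but another read 10512 on the null-labelled array and 3957 on the wild-type array (log2 ratio 1.41). Fosl1 was below the limit on both arrays, at 89.2 on the null-labelled array and 393 on the wild-type array. With the limit at the 25th percentile or none, 2 genes of this list were 2-fold lower. Of the 5 other Egr, Nr4a and Nab genes 4 were measured and 0 were 2-fold apart (median log2 ratio -0.34). Nr4a3, a receptor of the same family as Nr4a1, read 251 on the null-labelled array and 808 on the wild-type array, a bound of -0.72 on the log2 scale. Nr4a2 had a log2 ratio of -0.47 at its brightest probe set and of 0.98, 0.13 and a bound of 0.42 at its other measured ones. Nab1, a corepressor of Egr proteins, was the brightest of the list, with a log2 ratio of -0.20. All 3 other Ier genes were measured and 0 were 2-fold apart, with Ier5 brightest at 2640 on the null-labelled array and 3428 on the wild-type array.

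Genes that limit the response gave 3 lower genes of 18 measured, and 0 higher, with a median log2 ratio of 0.08. Dusp1, a phosphatase that inactivates MAP kinases, read 2278 on the null-labelled array and 5388 on the wild-type array, 2.37-fold lower. Gadd45b, a stress sensor of the growth arrest family, read 1709 and 4911 on the null-labelled and wild-type arrays, 2.87-fold lower. A second Gadd45b probe set gave a log2 ratio of -2.02 and another 0.22. Gadd45g, of the same family, read 406 on the null-labelled array, below the limit, and 1521 on the wild-type array, at least 3.11-fold lower. In contrast Zfp36, which destabilizes immediate early transcripts, had a log2 ratio of 0.42 and the antiproliferative gene Btg2 0.08. Nfkbia, the inhibitor of NF-kappa-B, was the brightest of the list with a log2 ratio of 0.45.

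Of 16 secreted and surface genes 11 were measured, 3 of them at least 2-fold lower and 0 higher (median log2 ratio -0.31). Ereg, a ligand of the EGF receptor, read 459 on the null-labelled array, below the limit, and 1629 on the wild-type array, at least 3.33-fold lower. The chemokine gene Cxcl1 read 510 and 1678 on the null-labelled and wild-type arrays, 3.29-fold lower, but its next probe set had a log2 ratio of 0.98. Ccn2, a matricellular protein also called connective tissue growth factor, read 3446 and 7429 on the null-labelled and wild-type arrays, 2.16-fold lower. The coagulation receptor gene F3 was the brightest gene of this list, with a log2 ratio of 0.49. Of the 16 other induced transcription factors, all measured, 0 were 2-fold lower and 1 was higher (median log2 ratio -0.07). This was Cebpb, at 3020 on the null-labelled array and 1459 on the wild-type array, 2.07-fold higher, which centring on the median ratio took below 2-fold. Klf4, the brightest, had a log2 ratio of -0.21.

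**Figure D3:**
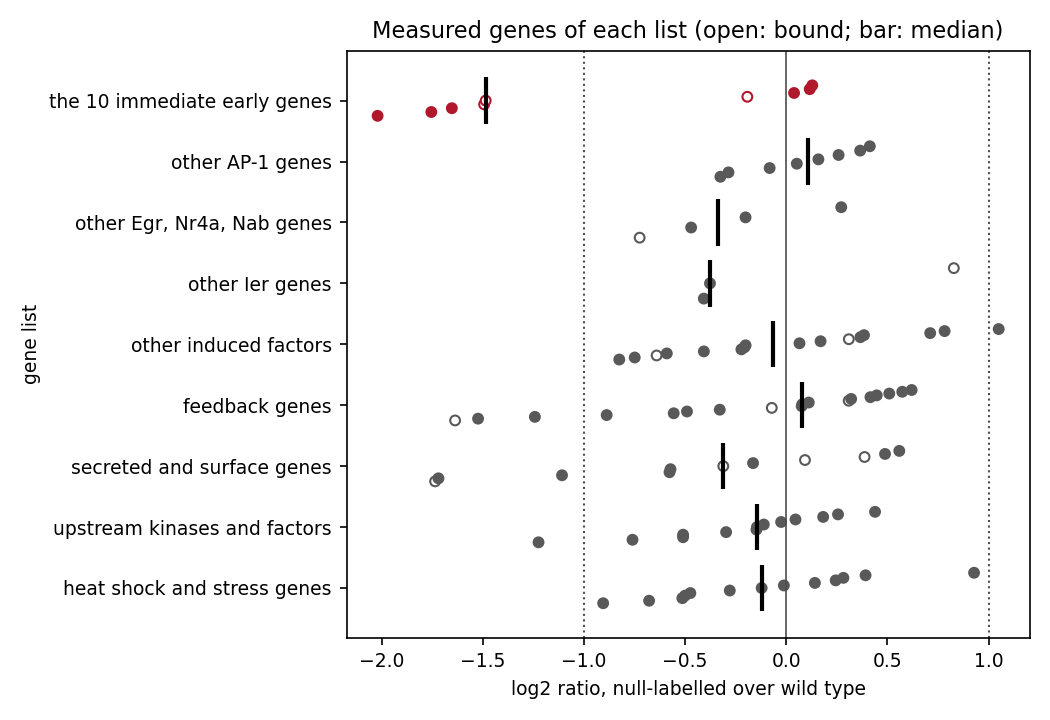
Log2 ratio (null-labelled over wild type) for each measured gene of the immediate early genes (red) and of 8 companion lists (grey), 1 point per gene, open where the ratio is a bound, with a black bar at the median and dotted lines at 2-fold. The bar is at -1.49 for the immediate early genes and between -0.38 and 0.11 for the other lists.

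Upstream kinases and factors were measured for 13 of 19 genes, with 1 at least 2-fold lower and 0 higher (median log2 ratio -0.14). Srf, serum response factor, read 7776 on the null-labelled array and 8599 on the wild-type array, and Creb1 had a log2 ratio of 0.26. The 1 lower gene was the MAP kinase kinase Map2k2, which read 2.34-fold lower on its brighter probe set, with a log2 ratio of -0.36 on the other. Rps6ka3, a kinase that phosphorylates CREB, was the brightest of the list with a log2 ratio of -0.03. Heat shock and other stress genes were measured for 13 of 14 genes and 0 were 2-fold apart in either direction (median log2 ratio -0.12, range -0.90 to 0.93). The inducible heat shock gene Hspa1a read 4773 on the null-labelled array and 4813 on the wild-type array. Hspa8, the constitutive member of that family, was the brightest of the list, at 119188 and 108052 on the null-labelled and wild-type arrays. Dnajb1, a cochaperone, had the highest ratio, with 128305 and 67431 on the null-labelled and wild-type arrays.

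The makeup of the 2 samples differed in other ways. All 7 striated muscle markers were at least 2-fold lower on the null-labelled array, with a summed signal of 5097 there and 312424 on the wild-type array. The targeted gene Myf5 read 496 on the null-labelled array and 4072 on the wild-type array, while Myod1 read 1698 on the null-labelled array and 2001 on the wild-type array. Since the position of its probes relative to the deletion is not stated, Myod1 checks nothing. The esophageal epithelium markers Krt4, Krt13, Krt5, Trp63 and Sox2 read at least 20777 on both arrays, and of the 7 such markers 1 (Krt14) was 2-fold lower. Of 4 measured white blood cell markers 2 were higher and 1 lower. Ptprc read 5010 on the null-labelled array and 585 on the wild-type array, 8.57-fold higher. The summed signal of 6 was 22303 on the null-labelled array and 18964 on the wild-type array. Most of it was Csf1r, at 14108 and 14020 on the null-labelled and wild-type arrays. The 5 smooth muscle markers summed to 297323 on the null-labelled array and 187771 on the wild-type array. Most of this sum was Acta2, at 242976 and 131127 on the null-labelled and wild-type arrays. Of the 5 markers 3 read lower on the null-labelled array and 2 higher, with a median log2 ratio of -0.47. At the 2-fold threshold 1 (Des) was lower and 0 were higher. The 5 fibroblast markers summed to 432649 and 298381 on the null-labelled and wild-type arrays, with 0 of them 2-fold apart. The 5 thyroid and thymus markers summed to 4708 on the null-labelled array, of which Rag1 gave 2823, and to 960 on the wild-type array, where all were under the limit. Of the 4 lung markers 2 were measured and 0 were 2-fold apart. Eif2s3y, a Y-linked gene, read 2402 on the null-labelled array and 10.6 on the wild-type array. Xist, also sex-linked, read 24254 and 42465 on the null-labelled and wild-type arrays, far over the limit on both. The sources used here do not state the sex of the embryos. The ratio of 3' to 5' signal of the added poly-A controls was higher on the null-labelled array in all 9 pairs, by 1.45-fold to 2.30-fold. The added dap, lys, phe and thr transcripts each gave more than 1 pair, so the pairs are not 9 separate controls. The same ratio for the tissue's own transcripts went both ways. It was 14.2 on the null-labelled array and 12.6 on the wild-type array for beta-actin, and 1.16 and 0.94 for 18S RNA. Values were lower on the null-labelled array for Gapdh (6.96 and 10.5), the transferrin receptor (1.19 and 3.30) and pyruvate carboxylase (0.35 and 2.38). The part of these differences in the lower immediate early genes was not tested. In whole tissue, fewer cells that express a gene and less RNA per cell cannot be told apart.

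**Figure D4:**
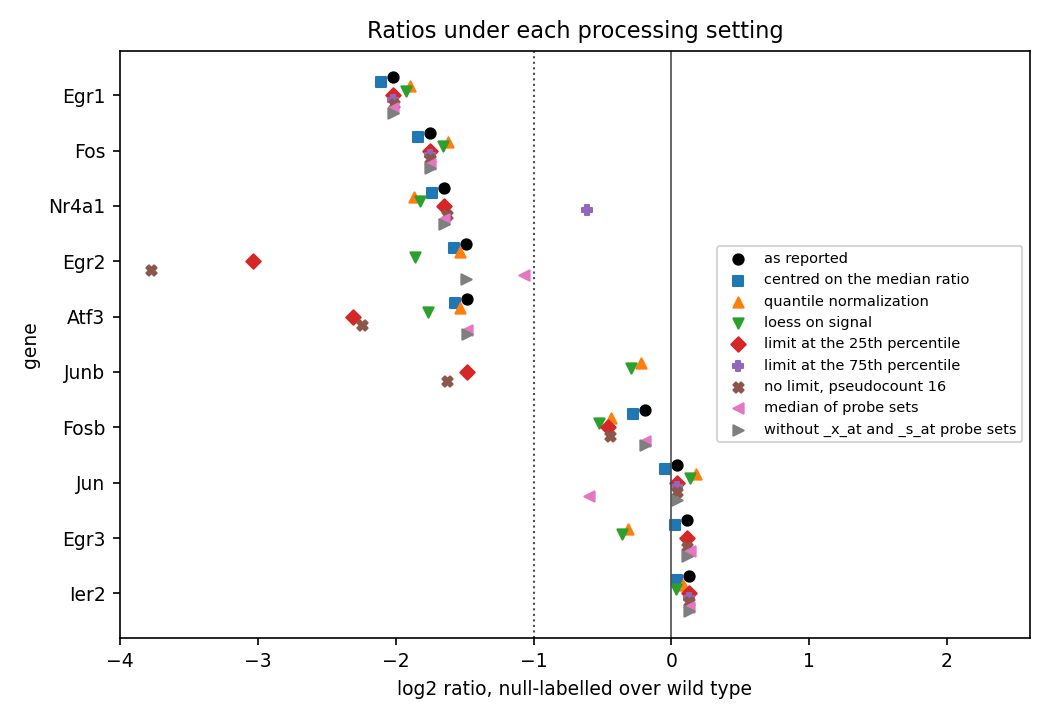
Log2 ratio (null-labelled over wild type) for each of the 10 genes under the reported processing (black) and 8 other settings (coloured symbols), with a dotted line at 2-fold lower. Egr1 and Fos stay left of -1 in every setting, Nr4a1 moves to -0.62 under a limit set to the 75th percentile, and Jun moves to -0.60 with the median of its probe sets.

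Fos and Egr1 were at least 2-fold lower in all 9 settings tried, with log2 ratios of -1.84 to -1.62 and of -2.11 to -1.90. Each has 1 probe set, which lay over every limit tried. Changed limits, the median of probe sets and leaving out _x_at and _s_at probe sets could therefore not move their ratios. Having no limit moved them little, so only centring, quantile normalization and loess tested these genes. Atf3 and Egr2 were at least 2-fold lower in all 8 settings in which they were measured, and Nr4a1 in 8 of 9. Egr2 was -1.49 as reported, -3.03 under a limit set to the 25th percentile, -3.77 with no limit and -1.07 with the median of its probe sets. Junb, measured in 4 settings only, ranged from -1.63 with no limit to -0.22 with quantile normalization. Ier2, also with 1 probe set over every limit tried, stayed between 0.04 and 0.13 in all 9 settings. Egr3 was 0.12 as reported but -0.31 with quantile normalization and -0.36 with loess. With loess 7.16% of measured genes were 2-fold lower and 3.43% higher, and 5 members were lower and 0 higher in that setting too.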

How the data were processed

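Total RNA was taken with Trizol from fetal esophagus, and biotinylated cRNA from 6 µg of it was hybridized to 1-colour Affymetrix arrays, per the labels' protocols. The deposited values are linear signal intensities, 1 per probe set, from MAS5 as run by the authors, per the submitters' processing notes, with version and settings unstated. Both arrays had a mean intensity of 1500 after trimming 2% from each end. Of 45101 probe sets, 64 array controls were left out, and 34945 had 1 gene symbol, 932 several and 9160 none in the platform annotation held by GEO, whose symbols may be dated. A gene took its probe set with the highest mean signal.

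Log2 ratios (null-labelled over wild type) were computed after low signals were set to the limit, and a gene counted as different at 2-fold; 13315 genes were measured and 2969 of them had a bound only. The code was tested on simulated data. The number of arrays, 1 per group, limits the precision. Members and lists were chosen with earlier results of these data known. In each list the text names up to 4 genes 2-fold apart in each direction and the brightest gene. Jund, Fosl1, Nr4a2, Nr4a3, Zfp36, Btg2, Srf, Creb1, Hspa1a, Dnajb1, Atf2, Eif2s3y, Xist, Acta2, Csf1r and Ptprc were named after their values were seen. Tissue markers are given mainly by counts and sums. The settings tried were centring, quantile normalization, loess on signal (span 0.3), limits at the 25th and 75th percentiles, a pseudocount of 16 in place of the limit, each gene's median probe set ratio, leaving out _x_at and _s_at probe sets, and thresholds of 1.5-fold and 4-fold. Computation used Python 3.11.15, numpy 2.4.6, statsmodels 0.14.6 and pandas 2.3.3.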

Additional observations from a re-analysis of the deposited data

How the results depend on the processing

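The count of 5 lower and 0 higher immediate early genes was unchanged with centring, quantile normalization, loess, the median of probe sets, without _x_at and _s_at probe sets and at 1.5-fold. None of the genes has an _x_at or _s_at probe set, so leaving these out could not change the count. It was 6 and 0 for a limit set to the 25th percentile and without any limit, where Junb was also lower. For a limit set to the 75th percentile 5 genes were measured, 2 of them (Fos and Egr1) lower, with a median log2 ratio of -0.62, since Nr4a1 lay under that limit on the null-labelled array and Atf3 and Egr2 on both. At 4-fold only Egr1 was lower (1 gene, against 1.07% of measured genes). Egr2 and Atf3 could not pass 4-fold, since the limit held them to bounds of 2.81-fold and 2.80-fold. The count of genes with both probe sets on 1 side of 0 was 2 as reported. It was 3 with centring, where the brighter Jun probe set also fell below 0, at -0.05. It was 1 with quantile normalization, 1 with loess and 0 for a limit set to the 75th percentile. Over all genes, 714 were 2-fold lower and 800 higher as reported, 831 and 612 with centring, 804 and 546 with quantile normalization, 938 and 449 with loess, 1232 and 2742 for a limit set to the 25th percentile, 383 and 148 for one set to the 75th, and 1704 and 3548 without any limit. In the companion lists, the lower count of secreted and surface genes was 3 as reported and 1 with quantile normalization or a limit set to the 75th percentile, that of feedback genes 3 and 5 without any limit, and that of upstream genes 1 and 0 with the median of probe sets. Reported lower counts of 0 became 2 for other AP-1 genes (25th percentile, no limit), 1 for other Egr, Nr4a and Nab genes (loess, 25th percentile, no limit) and 1 for other induced factors (quantile, loess). Reported higher counts of 0 became 1 for other Ier and for feedback genes and 2 for secreted and surface genes (25th percentile, no limit). Genes near the limit, Fosb, Egr3 and Junb, cannot read 2-fold lower at this limit. No paired analysis was possible because each genotype has 1 array, and for the same reason no replicate could be left out.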
